A study of Mus musculus with 6 samples.

Results

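The heat shock proteins and related chaperones were followed in mouse aortas that carried 1 altered copy of Palmd. Members were chosen by gene symbol: the families written Hsp90, Hspa, Hspb, Dnaj, Bag and Cct with their numbers, the genes Hspd1, Hspe1 and Hsph1, and Cryab. The rule took 95 of the 29752 genes in the deposited tables. Of these 95 genes, 76 reached at least 1 FPKM in at least 3 libraries and were tested, and 19 were not. FPKM scales sequenced fragments by the length of the gene and by the mapped reads of the library, so levels can be compared between genes per length. Members were then sorted by role and compartment into 9 inducible cytosolic genes, 9 further cytosolic HSP90 and HSP70 genes called constitutive here, 8 genes of the endoplasmic reticulum (ER), 8 mitochondrial genes, 6 other small heat shock proteins, 33 other J proteins, 5 other BAG proteins and 8 subunits of the chaperonin CCT. The remaining 9 were 7 pseudogenes, Cct8l1 and Hspb11, and were kept apart.

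Aortas of PALMD+/- mice gave 3 libraries and aortas of wild type mice gave 3 libraries. All mice were of the C57BL/6 strain and 15 weeks old, after 7 weeks on normal diet that began when they were 8 weeks old. The product of Palmd is palmdelphin, a relative of the membrane-linked paralemmins. The labels do not state which part of Palmd was altered or whether the libraries stand for separate animals, so the p-values measure the spread between these samples, which may be technical.

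Chaperones bind unfolded or partly folded proteins and keep them from aggregating until they fold, move to another compartment or are degraded. HSP70 proteins do this in cycles of ATP hydrolysis that J proteins start and that exchange factors such as BAG and HSP110 proteins end, while HSP90 completes the folding of kinases and steroid receptors and CCT encloses actin and tubulin. Under heat or other protein damage the transcription factor HSF1 raises the inducible members, the unfolded protein response raises those of the ER, and contractile smooth muscle is rich in small heat shock proteins that bind its actin cytoskeleton.

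HSF1 binds the heat shock element, which is made of alternating inverted GAA units, so the stretch just upstream of the start of transcription is shown for 3 members of the results below. The bases are those of RefSeq (GRCm38.p6), 200 bases upstream of each start, read 5′ to 3′ on the gene's own strand. Capitals mark every pair of inverted units, GAANNTTC or TTCNNGAA, each of which is its own reverse complement. Hspb1 lies upstream at chr5:135887719-135887918 on the plus strand, Hspa1a at chr17:34972157-34972356 on the minus strand and Hspd1 at chr1:55087933-55088132 on the minus strand.
Hspb1: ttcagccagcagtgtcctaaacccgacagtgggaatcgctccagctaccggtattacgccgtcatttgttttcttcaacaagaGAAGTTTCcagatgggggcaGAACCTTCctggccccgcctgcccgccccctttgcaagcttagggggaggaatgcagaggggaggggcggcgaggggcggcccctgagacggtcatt
Hspa1a: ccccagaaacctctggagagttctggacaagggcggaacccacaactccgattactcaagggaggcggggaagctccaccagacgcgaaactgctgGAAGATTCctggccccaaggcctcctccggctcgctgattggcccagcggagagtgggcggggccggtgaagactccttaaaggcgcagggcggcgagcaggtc
Hspd1: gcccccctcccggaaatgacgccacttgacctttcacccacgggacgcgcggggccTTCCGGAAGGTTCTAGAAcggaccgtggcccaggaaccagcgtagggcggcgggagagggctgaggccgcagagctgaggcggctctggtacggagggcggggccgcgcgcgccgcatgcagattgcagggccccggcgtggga

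In Hspb1 the pairs began 117 and 97 bases before the start, and in Hspa1a the pair began 104 bases before it. Hspa1b carried the same pair at the same distance, and 199 of its 200 upstream bases were identical to those of Hspa1a. In Hspd1 overlapping pairs formed an unbroken run that began 144 bases before the start. The same letters, read on the opposite strand, began 89 bases before the start of Hspe1, since from these starts both genes are transcribed outward from 1 shared stretch. Hspd1 has another listed start, with upstream bases chr1:55088244-55088443, and its window held no pair. From that start Hspd1 spans the run of pairs, and exons of Hspd1 and Hspe1 overlap on opposite strands.

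Windows from 250 bases before to 50 bases after the start were at hand for 71 members. A pair stood in a window of 21 of these 71 genes (29.6%), beside 17.0% of all 27025 genes with a window. A run of at least 3 alternating units stood in Hsph1, Hspd1, Hspe1 and Dnajb6 (4 genes, 5.63%), beside 0.662% of all genes. Among the inducible members 6 of the 7 genes with a window had a pair, all but Dnajb1, while 0 of 7 constitutive members with a window did. No window was at hand for the inducible Hsp90aa1 and Cryab or for the constitutive Hspa8 and Hsp90ab1, so these were not searched. The ER class had a pair in 1 of 7 genes, Dnajc10, and the CCT class in 3 of 7, Cct2, Cct5 and Cct6a. A match describes letters in a window and does not show that HSF1 binds there.

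Depth was nearly equal between libraries. The values rested on 17283690 to 18263166 reads in PALMD+/- libraries and on 18008817 to 18371897 reads in wild type libraries, recovered from the deposited values and the gene lengths. The tested members rested on as few as 2 reads (Dnajc19-ps) and as many as 47296 reads (Hspa8) in a library. The smooth muscle markers were present: Acta2, the smooth muscle actin, reached 3701 to 8367 FPKM in PALMD+/- libraries and 5866 to 8235 FPKM in wild type libraries, although Tagln, another such marker, was listed at 2.12 to 4.16 FPKM in PALMD+/- and 3.02 to 4.29 FPKM in wild type libraries. PALMD+/- replicate 2 stood apart: its mean correlation with the other libraries was 0.930, against 0.960 to 0.971 for the rest. It had the lowest value of the 6 libraries in 34.3% of all tested genes and in 61.8% of the tested members. Values without it stand beside the results that moved most with it.

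Palmd itself stood at 5.31, 7.19 and 6.21 FPKM in PALMD+/- replicates 1 to 3, against 5.49, 7.88 and 10.1 FPKM in wild type replicates 1 to 3. The groups overlapped, and the log2 fold change was -0.26 (SE 0.21, limma adjusted p = 0.915), so the transcript level did not separate the genotypes. Leaving out 1 library at a time gave -0.46 (without wild type replicate 1) to -0.08 (without wild type replicate 3), and -0.16 without PALMD+/- replicate 1. Fold changes here are PALMD+/- over wild type of log2(FPKM + 1), where genes with low values show less change than they had. They were fitted with limma over all 12620 tested genes, with p-values adjusted over that whole table and a threshold of 0.05.

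No member passed the test, yet the tested members leaned toward lower values in PALMD+/- aortas. By limma 0 of 76 members and 0 of 12620 genes (0%) had an adjusted p under 0.05, and the members' adjusted p-values lay between 0.548 and 1.00. At an unadjusted p under 0.05, 19 members (25.0%) were lower in PALMD+/- libraries, beside 2.44% of all tested genes, and 1 member (1.32%) was higher, beside 4.06% of all tested genes. Limma voom on the recovered reads also called 0 genes and 0 members, with 815 genes and 19 members at an unadjusted p under 0.05. With array quality weights 232 genes and 3 members (Dnajb9, Hspa4l and Hspb1) were called. The weight was lowest for PALMD+/- replicate 2 and highest for PALMD+/- replicate 3 (3.586) and wild type replicate 2 (3.107). The next highest was 1.039, for wild type replicate 3. Calls with these weights thus rest mostly on 1 library of each group.

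Counted by overlap, 24 of the 76 tested members (31.6%) had all 3 PALMD+/- values below all 3 wild type values, beside 5.12% of all tested genes. The opposite held for 3 members (3.95%), Dnajc19, Bag6 and Hspa14, beside 7.8% of all tested genes. The members' median log2 fold change was -0.13, beside 0.01 over all tested genes, and 52 members had a negative and 24 a positive value. Without PALMD+/- replicate 2 the median was -0.10, 32 members had both remaining PALMD+/- values below all wild type values, beside 12.4% of all tested genes, and 8 members had both above, beside 20.7% of all tested genes.

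Added together, all 95 members made up 1.02%, 0.707% and 1.08% of the summed FPKM of PALMD+/- replicates 1 to 3, against 1.23%, 1.40% and 1.58% in wild type replicates 1 to 3. Each PALMD+/- library was thus below each wild type library. Wild type replicate 3 had the highest value of the 6 libraries in 38.2% of tested members and in 10.3% of all tested genes. In bulk tissue, fewer cells of a type and less RNA per cell cannot be told apart.

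**Figure D1:**
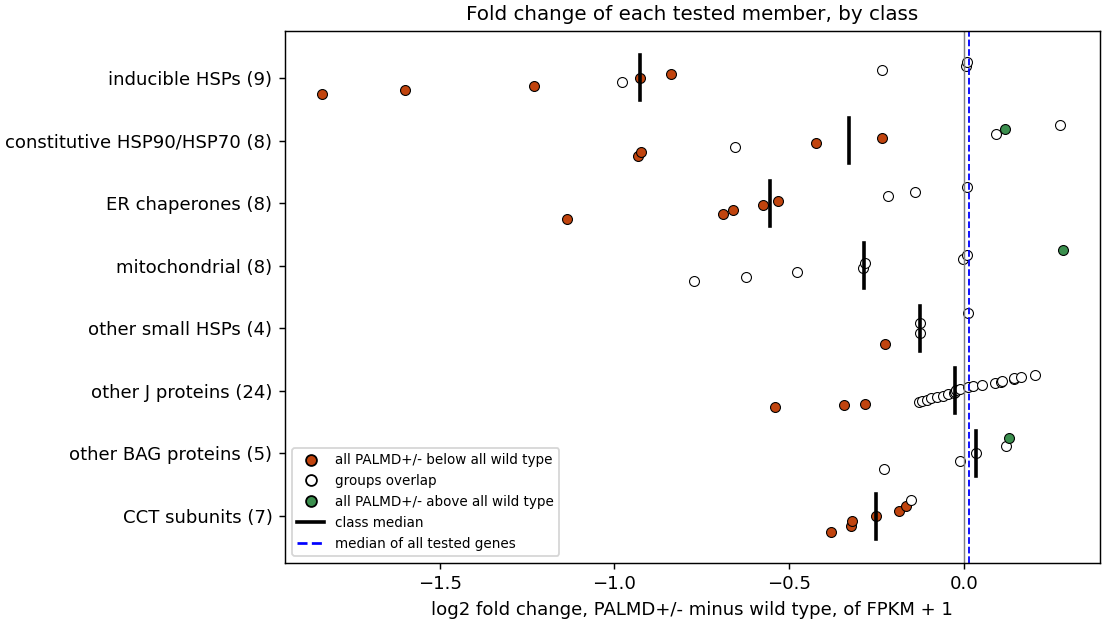
Log2 fold change (PALMD+/- minus wild type, log2(FPKM + 1)) of each tested member, 1 point per gene, by class with the number tested in parentheses. Orange points had all PALMD+/- values below all wild type values, green points the opposite, and white points overlapped. Black bars are class medians, from -0.93 for the inducible class to 0.04 for other BAG proteins, and the dashed line is the median of all tested genes at 0.01.

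The inducible cytosolic class was split. Hspb1, Hspa1b and Hsph1 had the largest negative fold changes of all members. With all libraries Hspa1b came first at -1.84, ahead of Hspb1 at -1.60. Without PALMD+/- replicate 2 Hspb1 came first instead, at -1.14. Dnajc15, Hspd1, Hspa4l, Hsp90aa1, Hspa5, Hspd1-ps3, Hspa9 and Hspe1 then came before Hspa1b and Hsph1, and Hspa8 came before Hsph1. Of its 9 genes, 5 had all PALMD+/- values below all wild type values, beside 5.12% of all tested genes. These were Hspb1, Hspa1b, Hsp90aa1, Hsph1 and Dnaja1, while Hspa1a, Cryab, Dnajb1 and Bag3 overlapped. The class median log2 fold change was -0.93, and -0.62 without PALMD+/- replicate 2, and none of its genes passed the threshold. That library had the lowest value of the 6 in all 9 genes.

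Hspb1, the small heat shock protein HSP27 that binds unfolding proteins and actin, stood at 259, 90.2 and 212 FPKM in PALMD+/- replicates 1 to 3, against 361, 593 and 652 FPKM in wild type replicates 1 to 3. Every PALMD+/- library was below every wild type library, with means of 187 ± 87.2 FPKM in PALMD+/- and 535 ± 154 FPKM in wild type (SD, n = 3 each). The log2 fold change came to -1.60, with an SE of 0.44, a 95% interval of -2.66 to -0.54 and an adjusted p of 0.609 by limma, and -1.14 without PALMD+/- replicate 2. With array quality weights it was -1.40 with an adjusted p of 0.0414 by limma. Cryab, the small heat shock protein alpha-B-crystallin, did not follow it: its values were 103, 79.5 and 129 FPKM in PALMD+/- libraries, against 121, 128 and 112 FPKM in wild type libraries. The groups overlapped, with a log2 fold change of -0.23 (SE 0.20, limma adjusted p = 0.919), and -0.06 without PALMD+/- replicate 2. As a result Hspb1 exceeded Cryab by a ratio of 2.51, 1.14 and 1.64 in PALMD+/- libraries, against 2.97, 4.64 and 5.83 in wild type libraries. Cryab and Hspb2 overlap on opposite strands, and the library kit is not described as keeping strand, so reads of their shared bases cannot be told apart.

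Hspa1a and Hspa1b, neighbouring genes on chromosome 17 at 34969190 to 34972156 and 34956436 to 34959238, encode near-identical stress-induced HSP70 proteins. Hspa1b stood at 67.9, 7.16 and 98.8 FPKM in PALMD+/- replicates 1 to 3, against 99.5, 149 and 168 FPKM in wild type replicates 1 to 3. The highest PALMD+/- value lay just under the lowest wild type value, and PALMD+/- replicate 2 was far below all others. The log2 fold change was -1.84 (SE 0.91, limma adjusted p = 0.805), and -0.72 without that library. Hspa1a stood at 39.7, 4.33 and 58.4 FPKM in PALMD+/- libraries, against 51.9, 44.8 and 39.8 FPKM in wild type libraries. PALMD+/- replicate 3 was here the highest of the 6, and the log2 fold change of -0.98 (SE 0.86, limma adjusted p = 0.924) turned to 0.09 without PALMD+/- replicate 2.

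Because 47.1% of the 100-base windows of the Hspa1a transcript recur unchanged in Hspa1b, the split of reads between both copies depends on the authors' counting and is uncertain. Their sum was 108, 11.5 and 157 FPKM in PALMD+/- libraries, against 151, 194 and 208 FPKM in wild type libraries, so that PALMD+/- replicate 3 lay above wild type replicate 1. The ratio of Hspa1b to Hspa1a was 1.71, 1.65 and 1.69 in PALMD+/- libraries, against 1.92, 3.34 and 4.23 in wild type libraries. It was almost constant among PALMD+/- libraries, even though their levels spanned more than an order of magnitude, and it varied among wild type libraries.

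Hsp90aa1, the inducible cytosolic HSP90 on chromosome 12 at 110690605 to 110702728, stood at 77.3, 69.8 and 95.0 FPKM in PALMD+/- replicates 1 to 3, against 112, 153 and 208 FPKM in wild type replicates 1 to 3. The groups did not overlap, and PALMD+/- replicate 2 was close to its own group here. The log2 fold change was -0.93 (SE 0.25, limma adjusted p = 0.597), and -0.83 without that library. Hsph1, the HSP110 exchange factor that reloads HSP70, stood at 28.1, 9.86 and 40.7 FPKM in PALMD+/- libraries, against 41.7, 57.1 and 67.5 FPKM in wild type libraries. PALMD+/- replicate 3 lay just under wild type replicate 1, and the log2 fold change was -1.23 (SE 0.49, limma adjusted p = 0.762), and -0.67 without PALMD+/- replicate 2.

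The J proteins of this class differed from each other. Dnaja1 stood at 29.6, 20.7 and 38.0 FPKM in PALMD+/- libraries, against 38.6, 54.4 and 66.7 FPKM in wild type libraries. The groups did not overlap, though by a narrow margin, and the log2 fold change was -0.84 (SE 0.28, limma adjusted p = 0.678). Dnajb1, the J protein that works with stress-induced HSP70, stood at 34.0, 14.0 and 41.7 FPKM in PALMD+/- libraries, against 29.3, 26.9 and 25.1 FPKM in wild type libraries. Both PALMD+/- replicates 1 and 3 exceeded every wild type library and PALMD+/- replicate 2 was below them all, which gave a log2 fold change of 0.01 (SE 0.38, limma adjusted p = 0.999), and 0.46 without that library. Bag3, the exchange factor that joins HSP70 to small heat shock proteins and to autophagy, stood at 60.6, 40.9 and 68.9 FPKM in PALMD+/- libraries, against 48.9, 62.3 and 55.2 FPKM in wild type libraries. Its groups overlapped, with a log2 fold change of 0.01 (SE 0.22, 95% interval -0.51 to 0.53, limma adjusted p = 0.999), and 0.22 without PALMD+/- replicate 2.

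**Figure D2:**
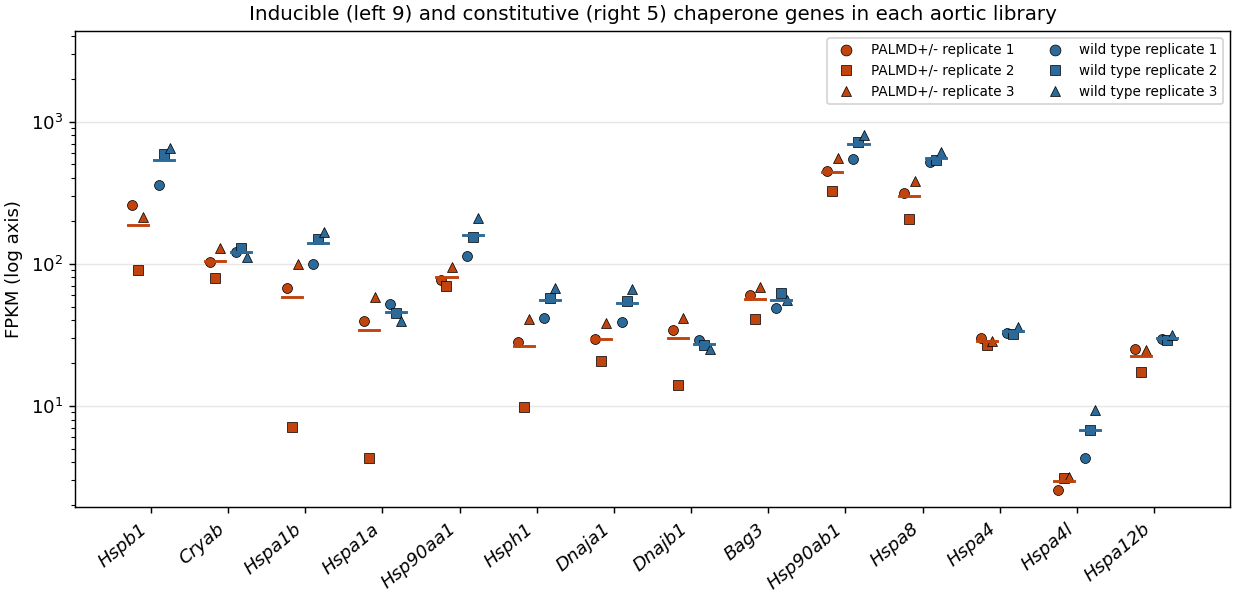
FPKM (log axis) of 9 inducible and 5 constitutive chaperone genes in each library, PALMD+/- left of wild type, with horizontal bars at group means (n = 3 each). The constitutive genes drawn all had negative log2 fold changes. Hspa12a, Hspa14 and Hspa2, with positive ones of 0.09 to 0.27, are not drawn. For Hspb1, Hsp90aa1 and Hspa8 no PALMD+/- point reaches a wild type point, while for Cryab, Dnajb1 and Bag3 the points mix. The squares of PALMD+/- replicate 2 fall lowest in 13 of the 14 genes, down to 4.33 FPKM for Hspa1a, but not in Hspa4l.

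The immediate early genes, which are switched on within minutes of a stimulus or of tissue handling, leaned in the same direction as the inducible class. Of the 15 genes of that list, all tested, 14 had a negative log2 fold change, beside 5913 of all 12620 tested genes. All PALMD+/- values lay below all wild type values in 4 of them (Egr2, Ier2, Junb and Nr4a1), beside 5.12% of all tested genes. By limma 0 passed the threshold, and 4 were lower at an unadjusted p under 0.05, beside 2.44% of all tested genes. The median log2 fold change of the 15 genes was -0.47. Without PALMD+/- replicate 2, which was the lowest library in 13 of them, it was -0.33 and 11 were negative. Their summed level was 684, 333 and 610 FPKM in PALMD+/- libraries, against 973, 1024 and 636 FPKM in wild type libraries, and none of the list was at 0 in all libraries. Hsf1, which encodes the heat shock transcription factor itself, stood at 29.5, 22.8 and 32.6 FPKM in PALMD+/- libraries, against 32.6, 30.2 and 30.2 FPKM in wild type libraries, and its groups overlapped. The part of the immediate early genes in the chaperone result was not tested.

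Among the constitutive cytosolic members, 4 of 8 tested genes had all PALMD+/- values below all wild type values, beside 5.12% of all tested genes. These were Hspa8, Hspa4l, Hspa12b and Hspa4. Hspa14 alone had them above, beside 7.8% of all tested genes. The class median log2 fold change was -0.33, and -0.22 without PALMD+/- replicate 2, and no gene passed the threshold. Hspa1l, the untested member, stayed at or under 0.709 FPKM.

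Hspa8 on chromosome 9, the HSC70 of unstressed cells, stood at 316, 205 and 382 FPKM in PALMD+/- replicates 1 to 3, against 516, 539 and 611 FPKM in wild type replicates 1 to 3. The groups were clearly apart, with means of 301 ± 89.2 FPKM in PALMD+/- and 555 ± 49.3 FPKM in wild type (SD, n = 3 each). The log2 fold change came to -0.92, with an SE of 0.26, a 95% interval of -1.55 to -0.29 and an adjusted p of 0.616 by limma, and -0.67 without PALMD+/- replicate 2. Hsp90ab1, the constitutive cytosolic HSP90 and the member with the highest mean level, stood at 452, 325 and 557 FPKM in PALMD+/- libraries, against 548, 722 and 809 FPKM in wild type libraries. PALMD+/- replicate 3 was above wild type replicate 1, and the log2 fold change was -0.66 (SE 0.27, limma adjusted p = 0.769). Hsp90aa1 amounted to 0.171, 0.215 and 0.1705 of Hsp90ab1 in PALMD+/- libraries, against 0.205, 0.212 and 0.258 in wild type libraries, so that the inducible share of cytosolic HSP90 overlapped between groups.

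Hspa4l, an HSP110 relative that acts as an exchange factor, stood at 2.58, 3.11 and 3.19 FPKM in PALMD+/- libraries, against 4.32, 6.80 and 9.34 FPKM in wild type libraries. The PALMD+/- libraries were tightly grouped and all below wild type, with a log2 fold change of -0.93 (SE 0.24, limma adjusted p = 0.576), and -0.96 without PALMD+/- replicate 2. With array quality weights the adjusted p by limma was 0.0497 at a log2 fold change of -0.93. Hspa4, its close paralog, stood at 29.9, 26.7 and 28.6 FPKM in PALMD+/- libraries, against 32.7, 32.2 and 35.7 FPKM in wild type libraries, which is a smaller difference (log2 fold change -0.23, limma adjusted p = 0.772). Hspa12b, a distant HSP70 relative of endothelial cells, stood at 25.2, 17.4 and 24.9 FPKM in PALMD+/- libraries, against 29.6, 29.1 and 31.7 FPKM in wild type libraries. Its groups did not overlap, with a log2 fold change of -0.42 (SE 0.16, limma adjusted p = 0.744), and -0.26 without PALMD+/- replicate 2. The 6 endothelial markers, none at 0 in all libraries, summed to 709, 217 and 686 FPKM in PALMD+/- libraries, against 764, 694 and 702 FPKM in wild type libraries, and their part in the Hspa12b values was not tested.

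Hspa14, an HSP70 relative that works at the ribosome, was the exception in direction, at 7.46, 6.90 and 6.87 FPKM in PALMD+/- libraries, against 6.64, 6.39 and 6.31 FPKM in wild type libraries. Its log2 fold change was 0.12 (SE 0.08, limma adjusted p = 0.888). Hspa12a reached 13.01 FPKM in PALMD+/- replicate 2, against 4.51 to 6.04 FPKM in the other 5 libraries, and Hspa2, the HSP70 of the male germ line, overlapped between groups.

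The chaperones of the ER, which fold secreted and membrane proteins, also leaned lower in PALMD+/- aortas. Of 8 genes, 5 had all PALMD+/- values below all wild type values, beside 5.12% of all tested genes. The same 5 were lower at an unadjusted p under 0.05 by limma, beside 2.44% of all tested genes. They were Hspa5, Hsp90b1, Dnajc3, Dnajb11 and Dnajb9. The class median log2 fold change was -0.55, and -0.39 without PALMD+/- replicate 2, and no gene passed the threshold.

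Hspa5, the ER HSP70 known as BiP, on chromosome 2 at 34771970 to 34777547, stood at 143, 83.5 and 199 FPKM in PALMD+/- replicates 1 to 3, against 222, 289 and 396 FPKM in wild type replicates 1 to 3. The groups did not overlap, and wild type replicate 3 was the highest library. The log2 fold change came to -1.13, with an SE of 0.36, a 95% interval of -2.01 to -0.26 and an adjusted p of 0.651 by limma, and -0.80 without PALMD+/- replicate 2. Hsp90b1, the ER HSP90 known as GRP94, stood at 58.1, 37.6 and 69.4 FPKM in PALMD+/- libraries, against 72.1, 80.2 and 106 FPKM in wild type libraries. Its order across libraries was that of Hspa5, and its log2 fold change was -0.66 (SE 0.26, limma adjusted p = 0.753), and -0.41 without PALMD+/- replicate 2.

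Dnajb9, the J protein that assists BiP in clearing misfolded proteins, stood at 18.5, 15.2 and 16.6 FPKM in PALMD+/- libraries, against 22.5, 25.9 and 28.1 FPKM in wild type libraries. Its spread within groups was small, and its adjusted p was, with that of Dnaja4, the lowest of the members (log2 fold change -0.58, SE 0.13, limma adjusted p = 0.548). With array quality weights it was called (log2 fold change -0.59, limma adjusted p = 0.0341). Dnajc3, a BiP co-chaperone that also inhibits the stress kinase PERK, stood at 38.7, 22.8 and 33.1 FPKM in PALMD+/- libraries, against 45.1, 49.1 and 57.5 FPKM in wild type libraries. Dnajb11, a soluble J protein of the ER lumen, stood at 21.9, 16.3 and 26.2 FPKM in PALMD+/- libraries, against 26.3, 30.4 and 37.0 FPKM in wild type libraries. Both had groups that did not overlap, with log2 fold changes of -0.69 for Dnajc3 and -0.53 for Dnajb11. The other 3 ER members, Hspa13, Dnajc10 and Dnajc1, overlapped, with log2 fold changes of -0.22 to 0.01, and of -0.06 to 0.14 without PALMD+/- replicate 2.

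The subunits of the chaperonin CCT differed little, but in 1 direction. All 7 tested subunits had negative log2 fold changes, from -0.38 to -0.15, beside 5913 of all 12620 tested genes. In 6 of them all PALMD+/- values lay below all wild type values, beside 5.12% of all tested genes. The class median was -0.25, and -0.17 without PALMD+/- replicate 2, and no subunit passed the threshold. The subunits assemble into 1 complex, so they are not independent of each other.

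Cct3 on chromosome 3 stood at 16.2, 14.6 and 17.7 FPKM in PALMD+/- replicates 1 to 3, against 19.1, 21.4 and 23.7 FPKM in wild type replicates 1 to 3. It was the subunit with the largest fold change, at -0.38 (SE 0.12, limma adjusted p = 0.669). Cct7 stood at 17.2, 16.9 and 19.5 FPKM in PALMD+/- libraries, against 20.8, 22.1 and 25.0 FPKM in wild type libraries, and Cct6a at 19.4, 18.7 and 21.01 FPKM in PALMD+/- libraries, against 22.2, 25.0 and 27.6 FPKM in wild type libraries. Both had a log2 fold change of -0.32. Cct2, the subunit with the highest mean level, stood at 50.4, 45.3 and 50.1 FPKM in PALMD+/- libraries, against 53.9, 54.0 and 55.9 FPKM in wild type libraries. Cct4 and Cct8 likewise did not overlap, with log2 fold changes of -0.25 and -0.18, while Cct5 overlapped. Cct6b, the paralog of Cct6a known from testis, was not tested and stayed at or under 0.402 FPKM. Tcp1, the subunit whose symbol falls outside the rule, stood at 24.1, 22.4 and 24.4 FPKM in PALMD+/- libraries, against 28.4, 27.3 and 28.8 FPKM in wild type libraries, with no overlap. The 8 CCT members of the rule summed to 211, 198 and 228 FPKM in PALMD+/- libraries, against 235, 244 and 267 FPKM in wild type libraries.

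**Figure D3:**
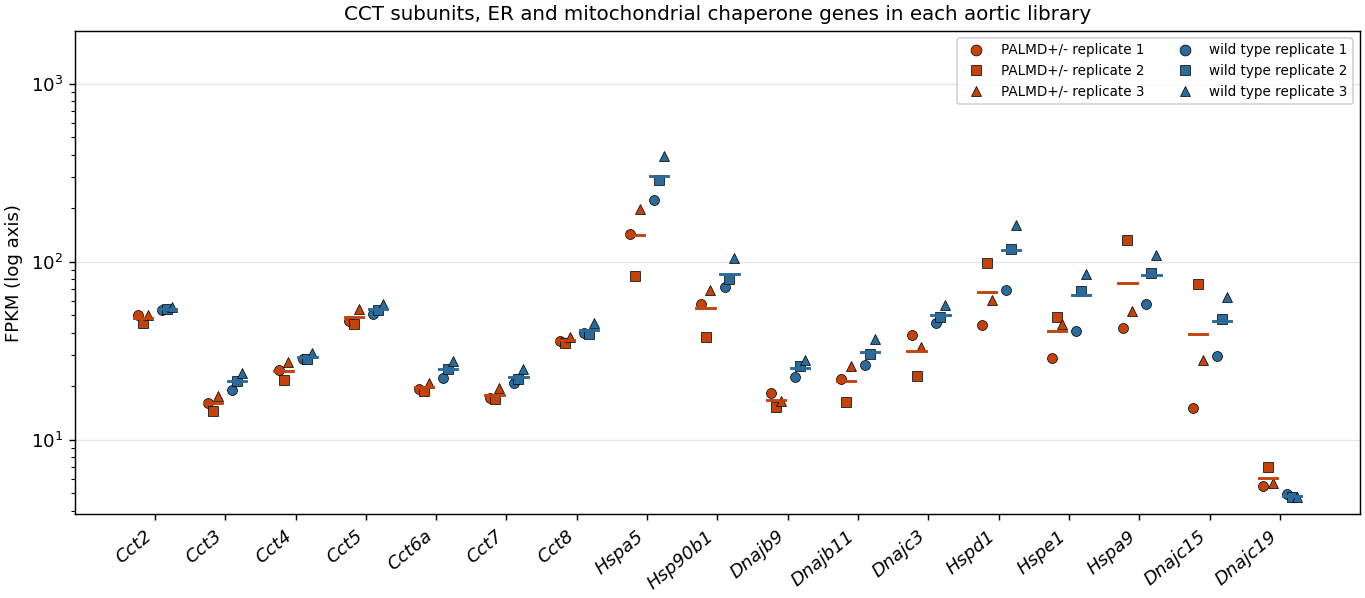
FPKM (log axis) of 7 CCT subunits, 5 ER genes and 5 mitochondrial genes in each library, PALMD+/- left of wild type, with horizontal bars at group means (n = 3 each). The ER genes drawn are those whose groups did not overlap, and the overlapping Hspa13, Dnajc10 and Dnajc1 are not drawn. CCT and drawn ER points of PALMD+/- lie below those of wild type except for Cct5, whereas the mitochondrial genes mix and Hspa9 is highest in PALMD+/- replicate 2 at 133 FPKM. Dnajc19 has its PALMD+/- points above all wild type points.

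The mitochondrial chaperones overlapped between groups in 7 of 8 genes. The class median log2 fold change was -0.29 with 6 of 8 negative, and -0.71 with 7 of 8 negative without PALMD+/- replicate 2, and no gene passed the threshold. Hspd1, the mitochondrial chaperonin HSP60, stood at 44.0, 98.2 and 61.3 FPKM in PALMD+/- replicates 1 to 3, against 69.9, 119 and 162 FPKM in wild type replicates 1 to 3. Here PALMD+/- replicate 2 was the highest of its group, and the log2 fold change was -0.77 (SE 0.39, limma adjusted p = 0.811), and -1.07 without that library. Hspe1, its lid HSP10 from the neighbouring gene, stood at 28.8, 49.2 and 44.9 FPKM in PALMD+/- libraries, against 40.9, 68.5 and 85.3 FPKM in wild type libraries, with a log2 fold change of -0.62. Hspa9, the mitochondrial HSP70 that pulls imported proteins through the inner membrane, stood at 42.7, 133 and 52.8 FPKM in PALMD+/- libraries, against 57.7, 86.9 and 109 FPKM in wild type libraries. Its log2 fold change was -0.28, and -0.77 without PALMD+/- replicate 2. Dnajc15, a J protein of the import motor, stood at 15.0, 75.1 and 28.0 FPKM in PALMD+/- libraries, against 29.6, 47.5 and 63.4 FPKM in wild type libraries. It gave a log2 fold change of -0.48, and of -1.08 without PALMD+/- replicate 2. Without that library, both remaining PALMD+/- values lay below all wild type values for Hspd1, Hspa9, Dnajc15 and Dnajc11, beside 12.4% of all tested genes.

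Adipocyte markers also varied widely between libraries of 1 genotype. The 6 brown adipocyte markers, none at 0 in all libraries, summed to 72.1, 1286 and 285 FPKM in PALMD+/- libraries, against 230.1, 1030 and 825 FPKM in wild type libraries. Ucp1, which marks brown fat, stood at 34.9, 790 and 153 FPKM in PALMD+/- libraries, against 117, 682 and 489 FPKM in wild type libraries. The 7 white adipocyte markers, none at 0 in all libraries, summed to 1380.5, 4841 and 1936 FPKM in PALMD+/- libraries, against 1605, 2512 and 3697 FPKM in wild type libraries. The mitochondrial members summed to 153, 402 and 215 FPKM in PALMD+/- libraries, against 225, 358 and 459 FPKM in wild type libraries. Within both genotypes the library lowest in brown adipocyte markers was also the lowest in mitochondrial chaperones, and the part of these markers in the result was not tested. When the fit held the level of the white adipocyte markers as a covariate, the median log2 fold change was -0.15 for the mitochondrial class, against -0.29 with no covariate and -0.71 without PALMD+/- replicate 2. It was -0.92 for the inducible class, -0.57 for the ER class and -0.27 for CCT.

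Dnajc19, a J-like protein of the inner membrane, went the other way, at 5.52, 7.07 and 5.74 FPKM in PALMD+/- libraries, against 4.95, 4.76 and 4.76 FPKM in wild type libraries. All PALMD+/- values were above all wild type values, and it was the 1 member with an unadjusted p under 0.05 in that direction (log2 fold change 0.28, SE 0.11, limma adjusted p = 0.744). Without PALMD+/- replicate 2 its log2 fold change was 0.19.

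**Figure D4:**
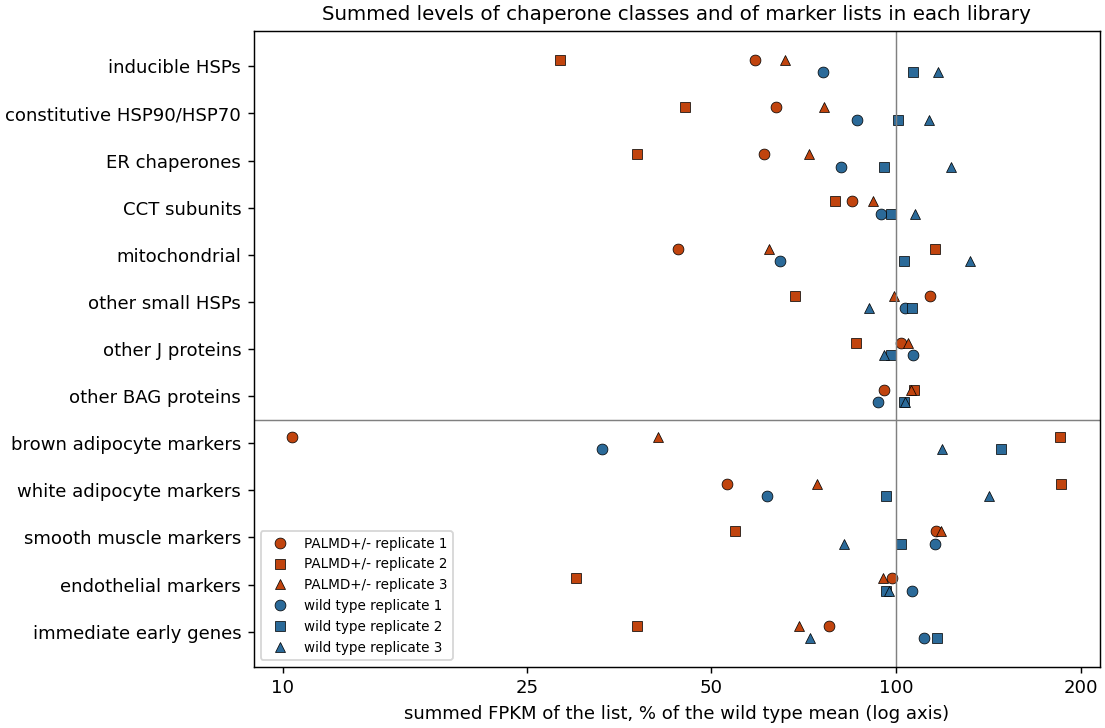
Summed FPKM of each chaperone class and of marker lists in each library, as percent of the wild type mean (log axis), PALMD+/- drawn above wild type in each row. PALMD+/- points of the inducible, constitutive, ER and CCT classes lie left of all wild type points, whereas mitochondrial chaperones and both adipocyte lists spread widely within each genotype. Each sum weighs most on the abundant genes of its list. PALMD+/- replicate 2 (square) is low in smooth muscle, endothelial and immediate early lists and high in adipocyte lists.

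Summed by class, the inducible members reached 699.7, 337 and 783 FPKM in PALMD+/- replicates 1 to 3, against 904, 1269 and 1394 FPKM in wild type replicates 1 to 3. The constitutive members reached 859.8, 609.8 and 1027 FPKM in PALMD+/- libraries, against 1163, 1357 and 1522 FPKM in wild type libraries. The ER members reached 331, 206 and 392 FPKM in PALMD+/- libraries, against 442, 521 and 669.7 FPKM in wild type libraries. These sums weigh most on the abundant members and do not stand for every gene of a class. Hspb1 alone reached 90.2 to 259 FPKM in PALMD+/- and 361 to 652 FPKM in wild type libraries. Hsp90ab1 and Hspa8 weigh most in the constitutive sum, and Hspa5 in the ER sum. In each of these sums every PALMD+/- library was below every wild type library.

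The other small heat shock proteins, which are abundant in muscle, did not share this order. Hspb8, the partner of Bag3, stood at 68.7, 68.1 and 72.3 FPKM in PALMD+/- replicates 1 to 3, against 72.6, 84.4 and 88.6 FPKM in wild type replicates 1 to 3. It was the 1 gene of this class without overlap, by a narrow margin, with a log2 fold change of -0.22 (SE 0.13, limma adjusted p = 0.837). Hspb7, the heart and muscle form, stood at 120.4, 47.3 and 79.8 FPKM in PALMD+/- libraries, against 98.5, 87.5 and 69.0 FPKM in wild type libraries. Hspb6, the HSP20 of smooth muscle, stood at 48.9, 27.8 and 56.3 FPKM in PALMD+/- libraries, against 44.4, 50.4 and 33.4 FPKM in wild type libraries. Both overlapped, and in both PALMD+/- replicate 2 was the lowest of the 6: their log2 fold changes were -0.13 for Hspb7 and 0.01 for Hspb6, and 0.22 and 0.31 without it. The 6 smooth muscle markers, none at 0 in all libraries, summed to 9847, 4646 and 10062 FPKM in PALMD+/- libraries, against 9836, 8653 and 6972 FPKM in wild type libraries, and their part in these values was not tested. Hspb2 overlapped as well, and Hspb3 and Hspb9 were not tested.

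Of the 33 other J proteins 24 were tested, and 21 of these overlapped between groups. Their median log2 fold change was -0.02, with 14 negative and 10 positive values. In 3 genes (Dnaja4, Dnaja2 and Dnajb2) all PALMD+/- values lay below all wild type values, beside 5.12% of all tested genes. Dnaja4, a J protein that partners with HSP70 in the cytosol, stood at 4.15, 3.82 and 4.61 FPKM in PALMD+/- libraries, against 5.93, 6.16 and 7.66 FPKM in wild type libraries. Its log2 fold change was -0.54 (SE 0.12, limma adjusted p = 0.548). Dnaja2, the relative of Dnaja1, stood at 33.1, 31.4 and 32.1 FPKM in PALMD+/- libraries, against 38.5, 40.1 and 39.7 FPKM in wild type libraries, with little spread within groups (log2 fold change -0.28, SE 0.10, limma adjusted p = 0.689). Dnajb2, which delivers clients to the proteasome, stood at 20.9, 16.4 and 22.6 FPKM in PALMD+/- libraries, against 25.5, 26.3 and 24.2 FPKM in wild type libraries, with a log2 fold change of -0.34, and -0.21 without PALMD+/- replicate 2. The other 21 tested J proteins overlapped, with log2 fold changes of -0.13 to 0.20, and of -0.34 to 0.45 without PALMD+/- replicate 2.

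Of the 5 other BAG proteins, Bag6, which guards newly made membrane proteins, had all PALMD+/- values above all wild type values. It stood at 46.2, 42.0 and 42.9 FPKM in PALMD+/- libraries, against 40.2, 40.9 and 38.7 FPKM in wild type libraries, with a log2 fold change of 0.13 (SE 0.10, limma adjusted p = 0.914). Bag1, the most abundant of them, stood at 61.5, 88.3 and 78.6 FPKM in PALMD+/- libraries, against 67.6, 77.7 and 83.4 FPKM in wild type libraries, and overlapped like Bag2, Bag4 and Bag5.

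The chaperone pathway beyond these families was followed through a list of 44 further genes (co-chaperones of HSP90 and HSP70, prefoldin, heat shock factors and others), of which 42 were tested. By limma 0 passed the threshold. At an unadjusted p under 0.05 by limma, 7 of the 42 were lower in PALMD+/- libraries, beside 2.44% of all tested genes, and none was higher. The list's median log2 fold change was -0.04. Without overlap, 7 of the 42 genes lay below, beside 5.12% of all tested genes. The 3 above (Stub1, Hscb and Pfdn4) stand beside 7.8% of all tested genes. The lowest p-values belonged to partners of HSP90 and HSP70. Fkbp5, a prolyl isomerase that restrains the glucocorticoid receptor, stood at 12.1, 8.27 and 10.2 FPKM in PALMD+/- libraries, against 15.9, 18.8 and 16.9 FPKM in wild type libraries. Its log2 fold change was -0.72 (SE 0.15, limma adjusted p = 0.548), and with array quality weights it was called (limma adjusted p = 0.0308). Fkbp4, its counterpart that helps the receptor move, stood at 53.8, 48.6 and 62.5 FPKM in PALMD+/- libraries, against 72.8, 99.9 and 108 FPKM in wild type libraries. Stip1, the adaptor that hands clients from HSP70 to HSP90, stood at 49.7, 36.8 and 67.1 FPKM in PALMD+/- libraries, against 76.6, 92.3 and 110.0 FPKM in wild type libraries. Neither overlapped, with log2 fold changes of -0.74 for Fkbp4 and -0.87 for Stip1, and St13 and Ptges3, further partners of HSP70 and HSP90, did not overlap either (-0.45 and -0.53).

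Set against the promoter letters, 18 tested members with a heat shock pair in a window had a median log2 fold change of -0.27, and 8 of them had all PALMD+/- values below all wild type values. The 42 tested members whose windows held no pair had a median of -0.09, and 13 of them had all PALMD+/- values below all wild type values. Over all tested genes the median was 0.01 and the share below was 5.12%, so members with and without a pair both leaned lower. Hspa8, Hsp90ab1, Hsp90aa1 and Cryab had no window and stand in neither count. Hspb1, Hspa1b, Hsph1, Dnaja1, Dnaja4, Hspb8, Cct2 and Cct6a held a pair and lay apart. Bag3, Hspa1a and Hspd1 were among those that held one and overlapped, and Hspa5 was among those that lay apart without one. Among tested members, 27 overlap an exon of another gene on the opposite strand, Dnaja1, Cct6a, Cct7 and Cct8 among them, and their reads may in part be those of the neighbour.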

How the data were processed

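The authors deposited 1 table per library with 29752 genes and FPKM values, fragments or reads scaled by gene length and library size. Whether reads or fragments were counted, with which tool and on which annotation, is not given in the sources used here. Per the submitters' processing notes, HISAT2 2.1.0, Bowtie2 2.2.3, TopHat2 and GRCm38 were used. The unit was read from the values: with GENCODE M21 exon lengths, 95.0% to 95.5% of low values were whole reads within 0.01 reads. Groups and replicate numbers come from the sample titles, with which the numbers inside the PALMD+/- tables differ. No 2 libraries were identical.

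Values were fitted as log2(FPKM + 1) with limma 3.58.1 (R 4.3.3, mean-variance trend, no covariate), over the genes that reached 1 FPKM in 3 or more libraries, with Benjamini-Hochberg adjustment at 0.05. The procedure was tested on simulated data with known changes and independent noise of equal spread in all libraries. No simulated library stood apart, so that test cannot show how PALMD+/- replicate 2 affects the fit. An exact permutation test of 3 against 3 cannot give a p below 0.1 and was not used. Tables and figures used Python 3.11.15, numpy 2.4.6, pandas 2.3.3 and matplotlib 3.10.9.

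The members, classes, gene lists and alternatives were chosen with earlier results of these data known. Named genes were all inducible members, in each other class the member with the highest mean and up to 4 with the smallest p, up to 5 pathway genes with the smallest p, and Palmd. Named outside this rule, after their values were seen, were Hspa4, Hspa14, Hspa12a, Hspa2, Hspa1l, Hsp90b1, Hspa13, Dnajc10, Dnajc1, Cct5, Cct8, Cct6b, Hspa9, Dnajc11, Hspb3, Hspb9, Dnajb6, Dnajc6, Dnajc12, Tcp1, Stub1, Hscb, Pfdn4, Hsf1 and the marker and immediate early genes.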

Additional observations from a re-analysis of the deposited data

How the results depend on the processing

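Alternatives were another pseudocount (0.1), no filter, median ratio scaling, no trend, voom, array quality weights, an adipocyte covariate, a replicate block and leaving out each library. With array quality weights 232 genes, 3 members and 1 further pathway gene were called, against 0 of each with equal weights, and the medians were -0.12 for CCT, -0.58 for the inducible class and -0.08 for all members. Values with these weights rest mostly on PALMD+/- replicate 3 and wild type replicate 2. Without the filter the median of all members was -0.05. Leaving out each library in turn gave 0 to 1 genes (1 without PALMD+/- replicate 1 or 3 or wild type replicate 1 or 2), 0 members and 0 pathway genes called, 25 to 32 members below and 3 to 8 above without overlap, and medians of -0.19 to -0.10 for all members, -1.05 to -0.62 for the inducible, -0.39 to -0.22 for the constitutive and -0.33 to -0.17 for the CCT class. Groups without overlap arise more easily with fewer libraries. Of all tested genes, 12.4% lay below and 20.7% above without PALMD+/- replicate 2, against 5.12% and 7.8% with all libraries. After centring within each group, same-numbered samples correlated at 0.51, -0.09 and -0.34. PALMD+/- replicate 2 and wild type replicate 3 correlated at 0.55. With so few libraries, and with numbers that differ inside the PALMD+/- tables, these values can neither show nor exclude a pairing. The replicate block called 0 genes and 0 members by limma, with 738 genes and 20 members at an unadjusted p under 0.05.

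Sign changes were listed only for the genes that the rule for named genes took. Members outside it changed sign as well, such as Hspa12a, from 0.27 to -0.17 without PALMD+/- replicate 2. Among the genes taken by that rule, log2 fold changes that changed sign belonged to members whose groups overlap, and the cause was not tested. With the covariate they were 0.032 for Bag1, -0.040 for Bag3, -0.0093 for Bag5, -0.105 for Dnajb1 and -0.075 for Hspb6. With median ratio scaling they were -0.0063 for Bag3, -0.0044 for Dnajb1 and -0.00052 for Hspb6, with voom -0.00073 for Dnajb1, and with array quality weights -0.14 for Bag4 and 0.16 for Hspa1a. Leaving out each library gave -0.13 to 0.13 for Bag1, -0.15 to 0.22 for Bag3, -0.11 to 0.26 for Bag4, -0.054 to 0.21 for Bag5, -0.29 to 0.46 for Dnajb1, -1.08 to 0.038 for Dnajc15, -1.65 to 0.089 for Hspa1a, -0.34 to 0.051 for Hspb2, -0.19 to 0.31 for Hspb6 and -0.45 to 0.22 for Hspb7. With 3 libraries a group, 1 of them apart from the rest, single members were not resolved: adjusted p-values were at least 0.548 with all libraries, equal weights and no covariate. Reads do not limit the members above 100 FPKM, but few reads back the pseudogenes.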

Other observations

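Some members stood out in 1 library. Dnajc6, which uncoats clathrin vesicles with HSP70 and is known from neurons, was listed at 0.0927, 3.80 and 0.139 FPKM in PALMD+/- replicates 1 to 3, against 0.0370, 0.00921 and 0.188 FPKM in wild type replicates 1 to 3. Dnajc12 reached 1.73 FPKM in PALMD+/- replicate 2, against 0.521 to 0.783 FPKM elsewhere. The 5 Schwann cell markers, none at 0 in all libraries, summed to 8.93, 59.3 and 11.2 FPKM in PALMD+/- libraries, against 9.11, 7.33 and 14.4 FPKM in wild type libraries, so the same library was high there. Their part in the Dnajc6 values was not tested.

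Of the pseudogenes, Hspd1-ps3 stood at 0.890, 1.95 and 1.37 FPKM in PALMD+/- libraries, against 1.59, 3.19 and 3.48 FPKM in wild type libraries, in the same order of libraries within each genotype as Hspd1. Its groups overlapped, and reads of the parent gene assigned to the copy cannot be told apart from its own. Hspb3, Dnajc5g, Dnaja1-ps and Hspe1-ps2 were listed at 0 in all 6 libraries.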
